A study of Mus musculus with 6 samples.

Results

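Hedgehog receptors, antagonists and Gli factors were followed in bulk RNA from podoplanin-positive fibroblasts of the mouse intestine. The 9 genes were chosen by name: the receptor Ptch1, the decoy receptor Hhip, the transducer Smo, the co-receptors Boc, Cdon and Gas1, and the transcription factors Gli1, Gli2 and Gli3. All 9 had a row in the deposited table of 15238 genes. The libraries came from Balb/c pups at postnatal day 9. The 3 DdblGata1 libraries (replicates 4, 9 and 10) came from pups that lack eosinophils, and the 3 wild-type libraries (replicates 1, 3 and 4) are their controls. DdblGata1 deletes a promoter element of Gata1, which encodes a blood lineage regulator, in the germline, so every cell of these pups carries it and not the eosinophil lineage alone. Cells were sorted as negative for CD45, EpCAM and CD31, surface proteins of leukocytes, epithelium and endothelium. The series title asks about eosinophils and the smooth muscle of the villi after birth. Whether each library is a separate pup is not stated in the labels, so the p-values measure the spread between these libraries, which may be technical.

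In the gut, Hedgehog ligands are made by the epithelium and act on the mesenchyme below it. Without ligand, PTCH1 holds SMO inactive and GLI3 is processed into a repressor. Ligand binding to PTCH1, helped by BOC, CDON and GAS1, frees SMO, and GLI proteins then activate targets that include Gli1, Ptch1 and Hhip themselves. PTCH1 and HHIP bind the ligand and so limit its action. Hedgehog signalling is known to promote smooth muscle formation in the gut wall and villi.

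The libraries held 28110454 to 31210800 estimated counts over all genes. Plain sums of estimated counts over its transcripts gave each of the 9 genes at least 1196 in every library, where counting alone gives an error of 2.89%. The deposited gene values can carry more, since they give short transcripts with few counts a larger weight. In wild-type replicate 3, for example, 3.2 estimated counts on the 367-base transcript Gli2-202 made up 26.9% of the Gli2 TPM. Gata1 itself was at 0 estimated counts except for 1 count in wild-type replicate 1, so the deletion could not be checked. Of 4 eosinophil markers, the granule gene Epx was at 0 in all 6. Prg2, another granule gene, had 0, 26 and 11 estimated counts in DdblGata1 replicates 4, 9 and 10 and 7, 3 and 2 in wild-type replicates 1, 3 and 4, and Siglecf had 6, 1 and 7 and 16, 6 and 5. Ccr3 had 0.166 to 0.258 CPM (estimated counts relative to library size, scaled by TMM) in DdblGata1 and 0.36 to 1.10 CPM in wild-type libraries. Podoplanin (Pdpn) ranged from 41.5 to 53.9 CPM in DdblGata1 and from 25.1 to 42.0 in wild-type libraries, and Col1a1, a fibrillar collagen gene, from 16400 to 42390 and from 30660 to 43730 CPM. The 6 measured leukocyte markers summed to 29.6 to 45.8 CPM in DdblGata1 libraries. They summed to 31.9 and 38.3 CPM in wild-type replicates 3 and 4 and to 95.6 CPM in wild-type replicate 1. The mean was lower in DdblGata1 for 5 of them, among them Ptprc and Lyz2, and higher for Cd3e. Wild-type replicate 1 also stood apart in its epithelial markers. The 6 genes of that list, none of them at 0, summed to 87.5 to 120 CPM in DdblGata1 libraries, 80.1 and 89.7 CPM in wild-type replicates 4 and 3, and 480 CPM in wild-type replicate 1. That library also had the lowest value of 5 of the 9 Hedgehog genes, namely Gli1, Gli2, Gli3, Boc and Cdon. Any link to its epithelial markers was not tested. The share of all genes lowest in that library was not counted, so this count has no share to be read against. Of the fibroblast markers, Pdpn, Dcn, Lum, Vim and Col3a1 were lowest there too, and Col1a1, Col1a2 and Pdgfra were not. In bulk RNA, fewer cells of one type and less RNA per cell cannot be told apart.

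A pair of sequences (RefSeq, build GRCm38.p6) lies near an annotated transcript start of the genes with the lowest and the highest log2 fold change. The first is the 250 bases before the annotated start of Hhip, chr8:80058009-80058258 on the minus strand, with CpG dinucleotides in capitals. The second is the end of a Cdon intron, chr9:35451965-35452044 on the plus strand, with the dinucleotide next to the following exon in capitals.
Hhip: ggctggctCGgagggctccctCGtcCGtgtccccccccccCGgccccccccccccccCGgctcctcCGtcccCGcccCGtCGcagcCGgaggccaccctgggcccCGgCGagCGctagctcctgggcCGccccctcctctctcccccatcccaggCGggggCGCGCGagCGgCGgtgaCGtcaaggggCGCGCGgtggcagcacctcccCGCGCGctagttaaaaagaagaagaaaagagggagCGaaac
Cdon: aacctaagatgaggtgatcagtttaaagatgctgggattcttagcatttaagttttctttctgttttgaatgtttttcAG
The Hhip window held 28 CpG dinucleotides, against a median of 6 over 32851 windows of the same length, and lies before the only coding transcript of Hhip in the index. The Cdon stretch leads into an exon used by 4 Cdon transcripts, and the annotated start of a further one, Cdon-201 (7213 bases), lies 31 bases inside that exon. Cdon-202 (7503 bases), the other main transcript, starts upstream at 35421558. The GLI binding consensus GACCACCCA was searched on both strands in the windows of the 7 genes that the table held (all but Gli1 and Boc). It occurred in 0 of these 7 and in 0.225% of all windows, which says only that these letters are not in those 250 bases.

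Levels between genes can be compared in TPM, the relative abundance of transcripts after division by their length. Gas1, a co-receptor anchored in the membrane, was the most abundant of the 9, with 112, 158 and 163 TPM in DdblGata1 replicates 4, 9 and 10 and 120, 147 and 115 TPM in wild-type replicates 1, 3 and 4. Smo followed with 59.5 to 85.1 TPM in DdblGata1 and 65.7 to 83.1 TPM in wild-type libraries. These 2 genes did not overlap each other or any other of the 9. Cdon, Ptch1 and Boc came next, with means over all 6 libraries of 39.6, 38.6 and 32.7 TPM and overlapping ranges. Cdon was above Ptch1 in 2 of 6 libraries. Gli1 was the most abundant Gli factor (mean 25.8 TPM, range 19.6 to 35.4), above Hhip (15.7), Gli3 (13.1) and Gli2 (10.5), and the last 3 overlapped. The lead of Gli1 over Gli3 was smaller on the main coding transcripts, where Gli1-201 held 88.2% to 95.1% of the Gli1 counts but 46.2% to 75.3% of its TPM. In DdblGata1 replicate 10 Gli1-201 had 12.2 TPM and Gli3-201 15.1 TPM. With all transcripts, Gli1 took 51.9 ± 5.98% of the summed Gli TPM in DdblGata1 and 52.4 ± 3.10% in wild-type libraries (SD, n = 3 each). The share of Gli3 was 29.0 ± 3.70% and 24.2 ± 1.23%, and that of Gli2 was 19.1 ± 4.79% and 23.5 ± 3.03%, in the same order.

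Setting DdblGata1 against wild-type fibroblasts asks whether these genes differ where eosinophils are lacking. None of the 9 passed edgeR's quasi-likelihood test at an adjusted p of 0.05, and neither did any of all 15238 genes (0% called), the lowest adjusted p being 0.384. At an unadjusted p under 0.05, edgeR and DESeq2 each counted the same 3 of the 9 genes, Hhip, Cdon and Gli3, where edgeR counted 1564 of all genes, or 10.3%. In those 3 genes the groups did not overlap, as in 16.3% of all genes. Hhip had lower values in DdblGata1 libraries, as 7.34% of all genes did without overlap, and Cdon and Gli3 had higher values, as 8.98% did. The deposited gene table weights transcripts by TPM, so a few reads on a short transcript count for more, and plain sums of the estimated counts changed which genes separated the groups.

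**Figure D1:**
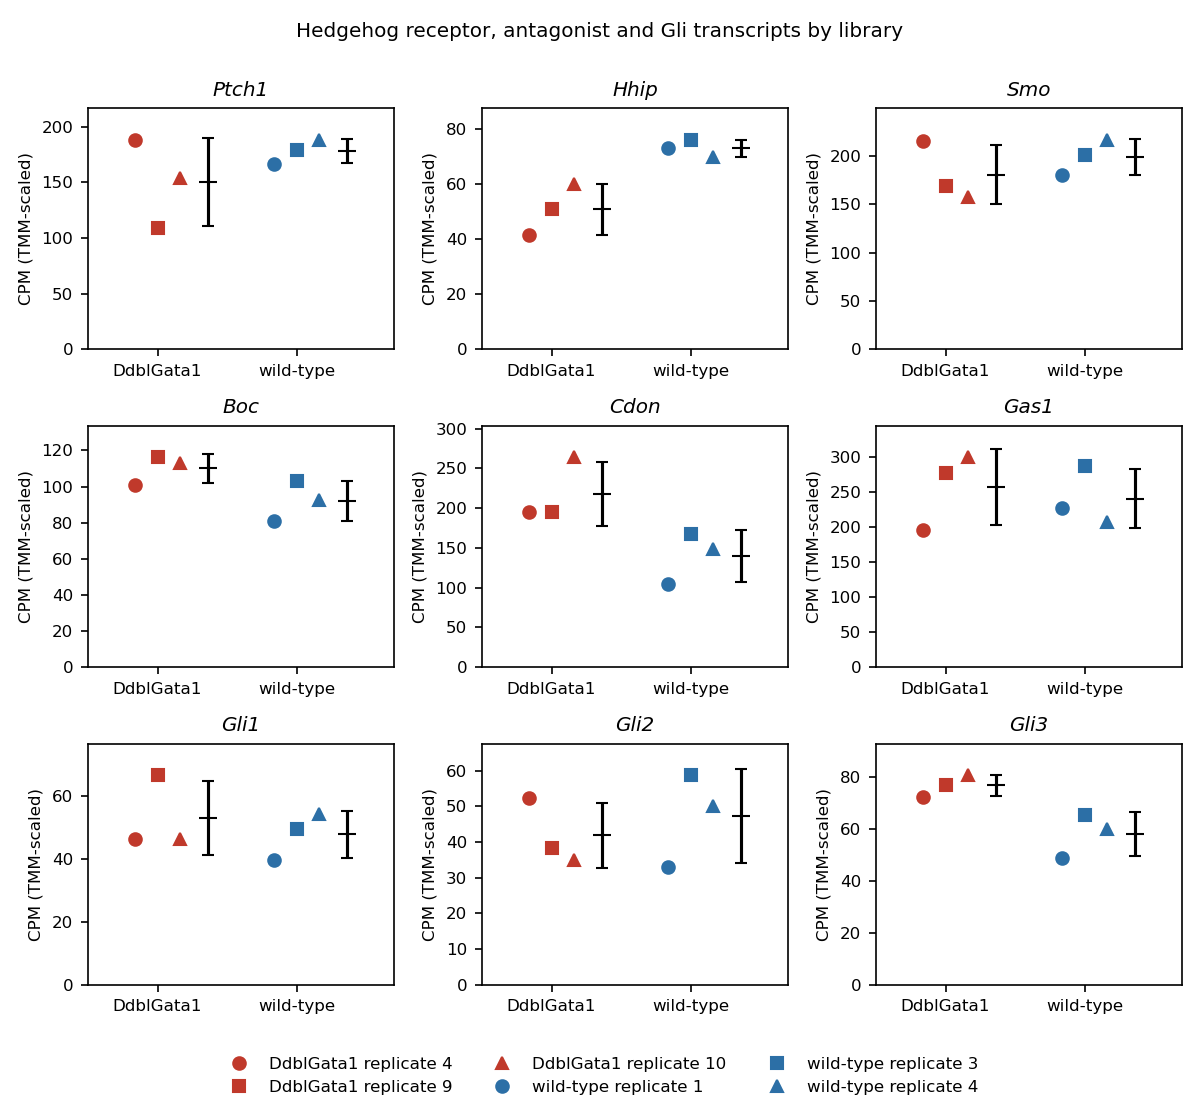
Level of each of the 9 genes in CPM (TMM-scaled, y axis from 0) in the 3 DdblGata1 and the 3 wild-type libraries; each point is a library and the bar is the mean ± SD. Hhip lies lower, and Cdon and Gli3 lie higher, in all 3 DdblGata1 libraries than in any wild-type library, while the other 6 genes overlap.

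Among the receptors that take up ligand, Hhip had 41.5, 51.0 and 60.0 CPM in DdblGata1 replicates 4, 9 and 10, against 73.1, 76.2 and 70.1 CPM in wild-type replicates 1, 3 and 4. Every DdblGata1 library was lower than every wild-type library, and DdblGata1 replicate 4 was lowest. As a log2 fold change of DdblGata1 over wild-type this was -0.52 ± 0.17 (SE; edgeR adjusted p = 0.424), and DESeq2 gave an adjusted p of 0.165. With the 2 surrogate variables of the deposited sample sheet as covariates DESeq2 called Hhip lower (-0.67, adjusted p = 0.00353). Fitting 2 further terms on 6 libraries leaves little to measure the spread by, so this p is less firm than it looks. That fit called 3.40% of all genes in either direction and 1.78% lower. By edgeR with the same covariates Hhip had a log2 fold change of -0.66 and was not called (adjusted p = 0.124). In plain sums of estimated counts Hhip had 45.1, 51.3 and 66.7 CPM in DdblGata1 replicates 4, 9 and 10 and 62.6, 67.5 and 77.8 CPM in wild-type replicates 1, 3 and 4. On that scale the groups overlapped, and the log2 fold change was -0.35 ± 0.17 (SE; edgeR adjusted p = 0.425).

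Ptch1, the receptor whose own gene is a Hedgehog target, had 188, 109 and 154 CPM in DdblGata1 replicates 4, 9 and 10. In wild-type replicates 1, 3 and 4 it had 167, 179 and 188 CPM. DdblGata1 replicate 4 was as high as the highest wild-type library, and the log2 fold change was -0.24 ± 0.20 (SE; edgeR adjusted p = 0.665). Plain sums gave another picture for this gene. They were 174, 122 and 123 CPM in the DdblGata1 libraries and 182, 191 and 198 CPM in the wild-type libraries, with no overlap, as in 19% of all genes on that scale. The log2 fold change on that scale was -0.45 ± 0.16 (SE; edgeR adjusted p = 0.352). By edgeR 0 of 15127 genes passed with plain sums, and 12.6% had an unadjusted p under 0.05. Without DdblGata1 replicate 9 the gene-table value was -0.07, and without DdblGata1 replicate 4 it was -0.44 (edgeR adjusted p = 0.94 and 0.277).

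The scales parted at short transcripts. Ptch1-207, a transcript of 809 bases, had 26.7 and 92.3 estimated counts in DdblGata1 replicates 4 and 10 and 0 in the other 4 libraries. In DdblGata1 replicate 10 that was 2.40% of the estimated counts of Ptch1 but 27.2% of its TPM. Ptch1-205, of 1123 bases, took 1.38% of the counts and 11.01% of the TPM in DdblGata1 replicate 4. The long coding transcripts Ptch1-202 and Ptch1-201 carried 74.4% to 79.6% and 15.2% to 23.7% of the Ptch1 counts over the 6 libraries. Ptch1-202 had 29.9, 20.3 and 20.96 TPM in DdblGata1 replicates 4, 9 and 10, against 29.4, 30.2 and 32.5 TPM in wild-type replicates 1, 3 and 4, so DdblGata1 replicate 4 lay within the wild-type range. For Hhip, the short non-coding transcript Hhip-202 took 11.6% to 21.2% of its TPM in DdblGata1 libraries and 11.9% to 33.9% in wild-type libraries, with at most 98.4 estimated counts. The coding transcript Hhip-201 alone had 9.31, 10.7 and 13.5 TPM in DdblGata1 replicates 4, 9 and 10 and 11.9, 12.5 and 16.0 TPM in wild-type replicates 1, 3 and 4, and the groups overlapped.

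**Figure D2:**
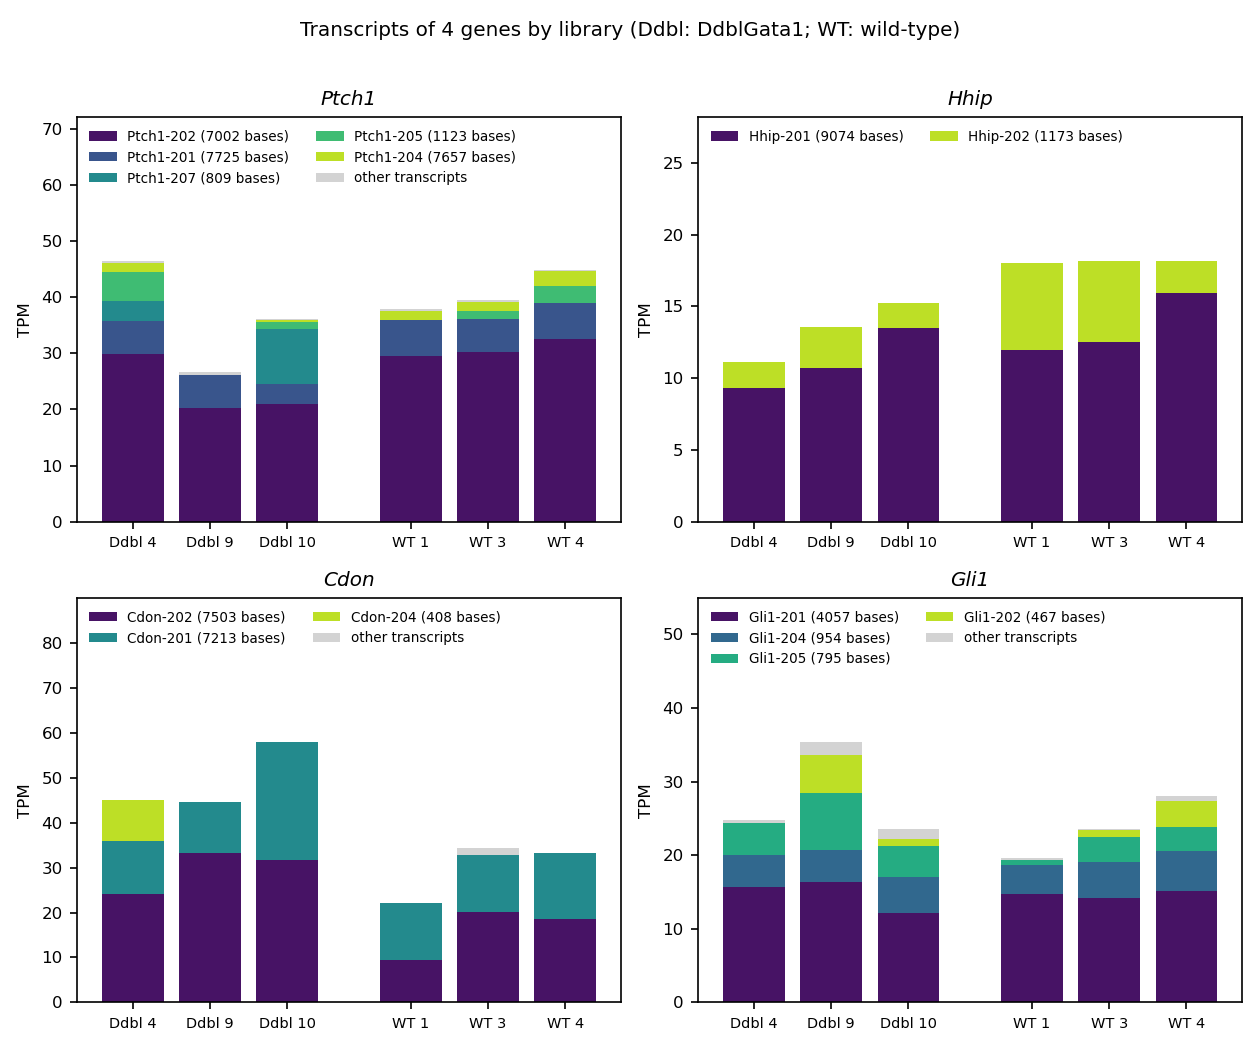
Stacked TPM of the transcripts of Ptch1, Hhip, Cdon and Gli1 in each library (x axis, DdblGata1 left of wild-type), with transcript lengths in bases in the legends; transcripts under 3% of the gene on average are pooled as other transcripts. Ptch1-207 appears in 2 DdblGata1 libraries only, with 3.64 and 9.82 TPM, and Gli1-201 stays between 12.2 and 16.4 TPM in all 6 libraries.

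Smo, the membrane protein that PTCH1 holds inactive, had 215, 169 and 158 CPM in DdblGata1 replicates 4, 9 and 10 and 180, 201 and 217 CPM in wild-type replicates 1, 3 and 4. The groups overlapped, with a log2 fold change of -0.14 ± 0.17 (SE; edgeR adjusted p = 0.763) that ranged from -0.28 without DdblGata1 replicate 4 to -0.07 without DdblGata1 replicate 10. DdblGata1 replicates 9 and 10 were the lowest of the 6 libraries for Smo, and DdblGata1 replicate 4 was the second highest.

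The co-receptors did not move alike. Cdon, which binds Hedgehog ligand together with PTCH1, had 195, 195 and 264 CPM in DdblGata1 replicates 4, 9 and 10, against 104, 167 and 149 CPM in wild-type replicates 1, 3 and 4. All DdblGata1 libraries were higher than the wild-type ones, DdblGata1 replicate 10 most of all and wild-type replicate 1 lowest. Its log2 fold change was 0.64 ± 0.22 (SE; edgeR adjusted p = 0.444), the largest in size of the 9, and DESeq2 gave an adjusted p of 0.201. Without wild-type replicate 1, the library high in epithelial markers, the value was 0.44 (edgeR adjusted p = 0.629). In plain sums Cdon had 166.2, 205 and 277 CPM in the DdblGata1 libraries and 107, 166.9 and 158 CPM in the wild-type libraries, where DdblGata1 replicate 4 lay just under wild-type replicate 3 and the log2 fold change was 0.59 ± 0.23 (SE; edgeR adjusted p = 0.369). In the gene table that library includes the 408-base transcript Cdon-204, which had 8.0 estimated counts there, or 0.18% of the Cdon counts and 20.1% of its TPM, and 0 in the other 5. The upstream-start transcript Cdon-202 had 24.2, 33.3 and 31.6 TPM in DdblGata1 replicates 4, 9 and 10 and 9.34, 20.0 and 18.5 TPM in wild-type replicates 1, 3 and 4, without overlap. Cdon-201 had 11.8, 11.4 and 26.4 TPM and 12.8, 12.8 and 14.8 TPM in the same libraries and did overlap. How many of all transcripts separate the groups was not counted, so the Cdon-202 values have no share to be read against.

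Boc, the relative of Cdon with 1 transcript in the index, had 101, 116 and 113 CPM in DdblGata1 replicates 4, 9 and 10 and 80.8, 103 and 92.6 CPM in wild-type replicates 1, 3 and 4. DdblGata1 replicate 4 and wild-type replicate 3 overlapped, and the log2 fold change was 0.26 ± 0.15 (SE; edgeR adjusted p = 0.55), or 0.15 without wild-type replicate 1. Gas1 had 196, 278 and 300 CPM in DdblGata1 and 227, 288 and 208 CPM in wild-type libraries, in the same order of replicates. The lowest Gas1 library was a DdblGata1 one and so was the highest, and the log2 fold change was 0.10 ± 0.21 (SE; edgeR adjusted p = 0.874). The sign of Gas1 turned without DdblGata1 replicate 10 (-0.04) and with the surrogate variables (-0.12), and without DdblGata1 replicate 4 the value was 0.26 (edgeR adjusted p = 0.983, 0.706 and 0.467). Within the summed TPM of the 3 co-receptors, Cdon took 21.5 ± 2.65% in DdblGata1 and 16.0 ± 2.70% in wild-type libraries (SD, n = 3 each), and Gas1 took 62.4 ± 3.47% and 68.4 ± 3.70%. The highest Cdon share, 23.5% in DdblGata1 replicate 4, rests in part on Cdon-204. That short transcript held 20.1% of the Cdon TPM there on 8.0 estimated counts. The Gas1 share in that library, 58.6%, was the lowest and is affected too.

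Of the Gli factors, Gli3, the main source of the GLI repressor, had 72.5, 77.1 and 80.8 CPM in DdblGata1 replicates 4, 9 and 10, against 48.8, 65.4 and 60.2 CPM in wild-type replicates 1, 3 and 4. The groups did not overlap, and wild-type replicate 1 was again lowest. The log2 fold change was 0.40 ± 0.15 (SE; edgeR adjusted p = 0.461) and 0.27 without wild-type replicate 1 (edgeR adjusted p = 0.659). In plain sums Gli3 was the 1 gene of Hhip, Cdon and Gli3 that still separated the groups, with 70.3, 77.3 and 81.5 CPM in DdblGata1 and 49.5, 65.9 and 62.8 CPM in wild-type libraries (log2 fold change 0.36 ± 0.14, SE; edgeR adjusted p = 0.366). Its coding transcript Gli3-201 carried 97.3% to 99.8% of its counts. The count does not tell full-length activator from processed repressor, which differ in the protein.

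Gli1, the Gli factor that is itself induced by the pathway, had 46.4, 66.7 and 46.3 CPM in DdblGata1 replicates 4, 9 and 10 and 39.8, 49.4 and 54.3 CPM in wild-type replicates 1, 3 and 4. Only DdblGata1 replicate 9 lay above the wild-type range. The log2 fold change was 0.15 ± 0.20 (SE; edgeR adjusted p = 0.789), but -0.06 without DdblGata1 replicate 9 (edgeR adjusted p = 0.951). In plain sums it was -0.04 ± 0.13 (SE; edgeR adjusted p = 0.905), with 50.1, 54.9 and 43.0 CPM in DdblGata1 and 48.5, 51.3 and 52.2 CPM in wild-type libraries. The full coding transcript Gli1-201 had 15.6, 16.4 and 12.2 TPM in DdblGata1 and 14.8, 14.2 and 15.2 TPM in wild-type libraries. A retained-intron transcript of 795 bases, Gli1-205, had 4.25, 7.82 and 4.18 TPM in DdblGata1 and 0.578, 3.31 and 3.31 TPM in wild-type libraries. These TPM did not overlap, but the estimated counts behind them did, at 36.8 to 79.6 and 6.7 to 37.4. The share of all transcripts without overlap was not counted. Transcript usage was tested across 9448 genes with diffSpliceDGE. None of the 6 testable Hedgehog genes passed (Simes adjusted p of 1 for each; 0 at an unadjusted p under 0.05), where 0.254% of all genes passed and 1.94% had an unadjusted p under 0.05. By the F test of that tool Gli1 had an unadjusted p of 0.0401 and an adjusted p of 1. Gli2, the main GLI activator, had 52.3, 38.4 and 34.8 CPM in DdblGata1 replicates 4, 9 and 10 and 33.1, 58.7 and 50.0 CPM in wild-type replicates 1, 3 and 4, so the groups overlapped fully (log2 fold change -0.18 ± 0.25, SE; edgeR adjusted p = 0.799). Without wild-type replicate 3 its value was 0.01 (edgeR adjusted p = 0.991).

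**Figure D3:**
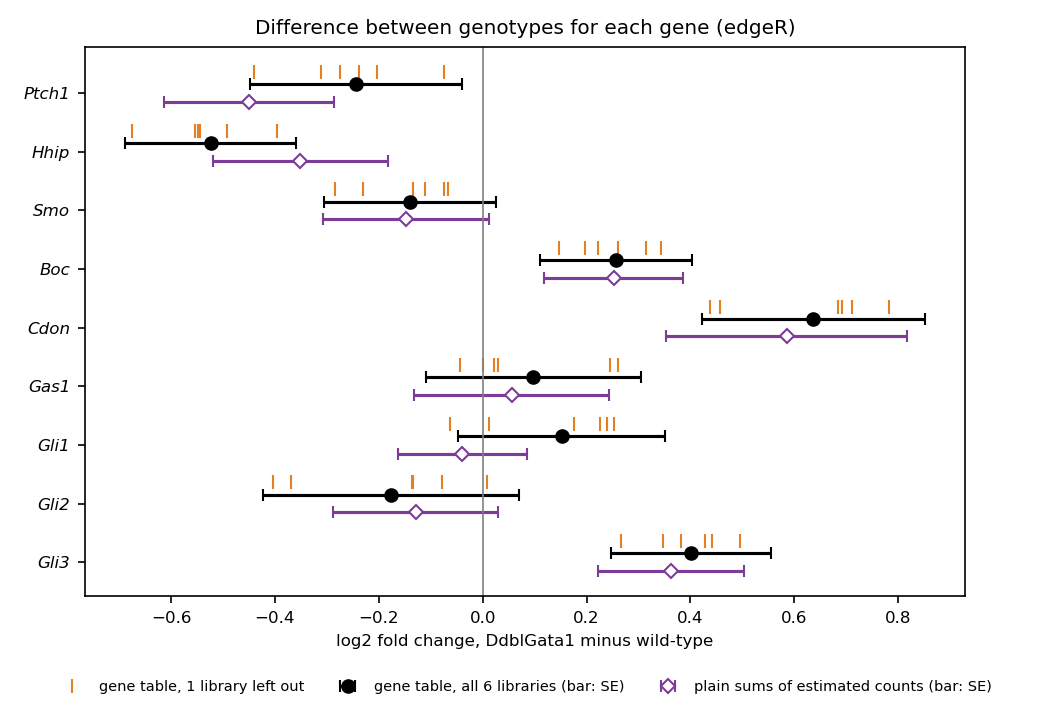
Log2 fold change of each gene, DdblGata1 minus wild-type (x axis), by edgeR from the deposited gene table (black, bar: SE), from plain sums of estimated counts (open diamonds, bar: SE) and from the gene table with 1 library left out (ticks). Ptch1, Hhip and Smo lie below 0 and Boc, Cdon and Gli3 above 0 in all of these fits, and Gli1, Gli2 and Gas1 have values on both sides.

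On the GRCm38 build, Hhip (ENSMUSG00000064325) lies on chromosome 8 from 79965851 to 80058006, minus strand, and Cdon (ENSMUSG00000038119) on chromosome 9 from 35421128 to 35507652, plus strand. Chromosome 13 holds 3 of the genes: Gli3 (ENSMUSG00000021318) from 15463235 to 15730026, Gas1 (ENSMUSG00000052957) from 60174405 to 60177365 and Ptch1 (ENSMUSG00000021466) from 63508328 to 63573598. Gli1 (ENSMUSG00000025407) lies on chromosome 10 from 127329882 to 127341974.

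Profiles over the 6 libraries were compared by the root mean square difference of log2 CPM, each gene centred on its own mean, among 12834 other genes. The nearest to Hhip were Npnt, a matrix protein gene, at 0.06, Ntrk3, a neurotrophin receptor gene, at 0.07, Acsf3 at 0.08, and Fry and the fibroblast growth factor receptor gene Fgfr2 at 0.09. All 5 had lower values in DdblGata1 libraries without overlap, which a choice by likeness to Hhip fixes. Nearest to Ptch1 were Pih1d1, Gnaz, Btd, Ccdc166 and Agpat4 (0.06 to 0.09), and near to Gli1 were Mon2, Hgs, Wdr47 and Ranbp6 (0.06 to 0.07). Among the 9 themselves, Gli3 and Boc were the closest pair, at 0.09, and then Gli1 and Boc at 0.18 and Gli3 and Cdon at 0.18. A gene that varies little is near to many others by this measure. Boc ranged over only 0.52 log2 units, and Gli1 had a root mean square of 0.23 around its own mean. The 0.18 between them is therefore not small beside their own variation.

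The rest of the pathway was described from 55 genes in 5 lists, of which 54 were in the table. By edgeR 0 of them passed. At an unadjusted p under 0.05 there were 5 with higher and 4 with lower values, beside 6.03% and 4.23% of all genes. DESeq2 called 0 of these 54 as well, where it called 1.51% of all genes. The median log2 fold change over all genes was -0.01.

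Ligands were scarce. Shh had 0 estimated counts in each DdblGata1 library and 2, 0 and 3 in wild-type replicates 1, 3 and 4, and was not in the gene table. Ihh had 0.990, 2.78 and 1.16 CPM in DdblGata1 replicates 4, 9 and 10 and 6.80, 1.24 and 1.31 CPM in wild-type replicates 1, 3 and 4, so the highest library was the one high in epithelial markers. The third ligand, Dhh, had 0.387 to 2.42 CPM in DdblGata1 and 0.915 to 2.52 CPM in wild-type libraries (log2 fold change -0.73, edgeR adjusted p = 0.722). In the list of ligands and their release, 1 of 7 measured genes was higher and 1 lower at an unadjusted p under 0.05, and its median log2 fold change was -0.69. That median was the value of Scube1, and the values below it were those of Scube3 and of the scarce Ihh and Dhh. Disp1, which releases lipid-bound ligand from producing cells, had 33.7 to 53.0 CPM in DdblGata1 and 21.6 to 33.1 CPM in wild-type libraries (log2 fold change 0.64, edgeR adjusted p = 0.45). Scube2, a secreted carrier of ligand, had 20.7 to 32.1 CPM and 30.4 to 40.9 CPM (-0.55, edgeR adjusted p = 0.481). Its relatives Scube3 and Scube1 had log2 fold changes of -0.88 and -0.69 (edgeR adjusted p = 0.52 and 0.553).

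Of the 7 other surface modulators, 1 was higher at an unadjusted p under 0.05 and the median log2 fold change was 0.09. That gene was Lrp2, an endocytic receptor that binds Hedgehog ligand, with 8.95, 10.4 and 14.3 CPM in DdblGata1 and 3.66, 6.21 and 7.76 CPM in wild-type libraries (0.94, edgeR adjusted p = 0.444). Mgrn1, a ubiquitin ligase gene that promotes the removal of SMO from the cell surface, and the glypican gene Gpc6 had log2 fold changes of -0.29 and 0.48 (edgeR adjusted p = 0.529 and 0.646). Among the 20 intracellular regulators 0 had an unadjusted p under 0.05, and their median was 0.06. Evc2, which acts with SMO in the cilium, Cul3, a ubiquitin ligase scaffold, Sufu, which binds and restrains GLI proteins, and the arrestin gene Arrb2 had the smallest p-values of that list, with log2 fold changes of 0.23, 0.24, -0.17 and 0.23 (edgeR adjusted p = 0.589 to 0.718).

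Hedgehog signals pass through the primary cilium. All 10 genes of its machinery had a higher value in DdblGata1 libraries, 2 of them at an unadjusted p under 0.05, and the median log2 fold change was 0.36. Tctn1, a gene of the transition zone, had 35.2, 32.8 and 34.8 CPM in DdblGata1 and 25.0, 26.2 and 26.1 CPM in wild-type libraries (0.41 ± 0.14, SE; edgeR adjusted p = 0.444). The ciliary motor genes Dync2h1 and Kif3a had values of 0.44 and 0.34, and the transport gene Ift88 had 0.46 (edgeR adjusted p = 0.483, 0.489 and 0.523).

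Of 10 known mesenchymal target genes, 8 had a lower and 2 a higher value, and 4 of them had an unadjusted p under 0.05, of which 3 were lower. The median log2 fold change was -0.45. Foxf1, a forkhead factor of gut mesenchyme, had 67.4, 95.3 and 82.1 CPM in DdblGata1 replicates 4, 9 and 10 and 136, 124 and 115 CPM in wild-type replicates 1, 3 and 4 (-0.61 ± 0.17, SE; edgeR adjusted p = 0.384; DESeq2 adjusted p = 0.06). It was the 1 of these genes that DESeq2 called with the surrogate variables (-0.67, adjusted p = 0.00226), where edgeR with the same variables called 0 pathway genes. Mycn, a proliferation factor gene, and Foxl1, a marker of subepithelial telocytes, had log2 fold changes of -0.80 and -1.30, and Wnt5a, a Wnt ligand gene, had 0.45 (edgeR adjusted p = 0.444, 0.483 and 0.484). Mycn and Foxl1 were low. Mycn had 3.035 to 4.584 CPM in DdblGata1 and 5.725 to 6.905 CPM in wild-type libraries. Foxl1 had 3.70, 1.42 and 0.807 CPM in DdblGata1 replicates 4, 9 and 10 and 4.36, 4.24 and 6.02 CPM in wild-type replicates 1, 3 and 4. Without DdblGata1 replicate 4, DESeq2 called 3.69% of all genes lower. These included 8 pathway genes, namely Scube1, Scube2, Foxf1, Foxl1, Bmp4, Ccnd1, Ccnd2 and Mycn, and 0 of the 9 receptor, antagonist and Gli genes. In that library the cyclin gene Ccnd1 had 117 CPM, against 33.9 and 22.5 CPM in DdblGata1 replicates 9 and 10 and 47.3 to 89.0 CPM in wild-type libraries.

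**Figure D4:**
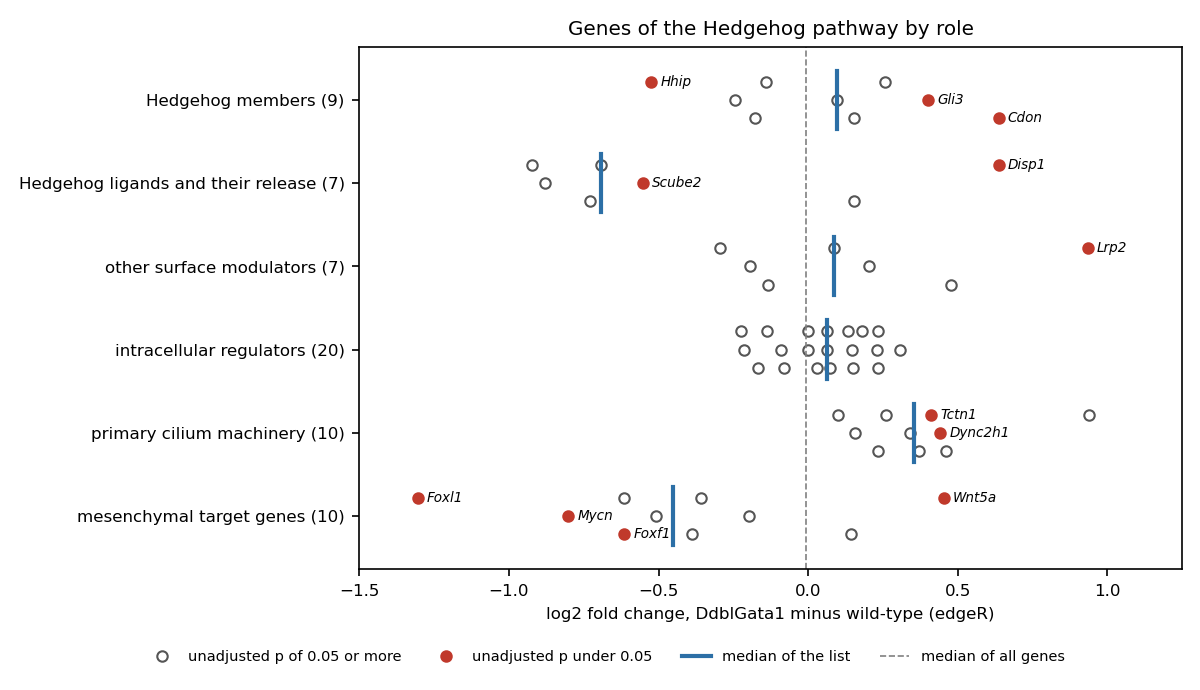
Log2 fold change, DdblGata1 minus wild-type (x axis, edgeR), of each measured gene of 6 lists (rows, number of genes in brackets); filled points have an unadjusted p under 0.05, solid bars are list medians and the dashed line is the median of all genes. The cilium genes lie above 0, with a median of 0.36, and the target genes mostly below, with a median of -0.45, and no gene passed at an adjusted p of 0.05.

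Markers of other cells moved beside these values. The 10 smooth muscle markers, none of them at 0, summed to 7271, 11710 and 10630 CPM in DdblGata1 replicates 4, 9 and 10 and to 16560, 18280 and 10570 CPM in wild-type replicates 1, 3 and 4. All 10 had a lower mean in DdblGata1 libraries, 5 of them at an unadjusted p under 0.05 by edgeR. At that p 4.23% of all genes were lower and 6.03% higher, for this and the next lists. In the sum, wild-type replicate 4 lay within the DdblGata1 range. DdblGata1 replicate 4 had the lowest sum. The 5 pericyte markers summed to 1370 to 1471 CPM in DdblGata1 and 1771 to 2326 CPM in wild-type libraries. Most of each sum was Rgs5, with 824 to 887 and 1131 to 1586 CPM. The mean was lower in DdblGata1 for 4 of the 5, each at an unadjusted p under 0.05 by edgeR, and higher for Notch3 (72.2 and 66.1 CPM). The 8 markers of CD81-positive and PDGFRA-low fibroblasts summed to 2571 to 3060 CPM in DdblGata1 and 1671 to 2218 CPM in wild-type libraries, but did not move alike. Of them 5 had a higher mean in DdblGata1, with Cd34, Cd55 and Dpp4 at an unadjusted p under 0.05, and 3 a lower one, namely Ackr4, at an unadjusted p under 0.05, Grem1 and Cd81 itself. The 10 immediate early genes, which respond to tissue dissociation, summed to 7463 to 8926 CPM in DdblGata1 and 5418 to 5662 CPM in wild-type libraries. By edgeR none of these markers passed. DESeq2, which called 1.51% of all genes, called the smooth muscle marker Des lower (adjusted p = 0.0297). It called Dpp4, Cd55 and the immediate early genes Zfp36 and Egr1 higher (DESeq2 adjusted p = 0.000354, 0.00112, 0.00184 and 0.0162). The mesothelial marker Wt1 was also called higher, and Frzb, of the villus PDGFRA-high fibroblast list, lower (DESeq2 adjusted p = 0.016 and 0.0433). Of the other marker lists, mesothelium had 4 genes with higher and 0 with lower values, and interstitial cells of Cajal 0 and 3. Villus PDGFRA-high fibroblasts had 5 and 4, enteric glia 1 and 3, enteric neurons 3 and 1, and endothelium 2 and 4. The part of these cells and responses in the values of Hhip, Cdon, Gli3 and the target genes was not tested.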

How the data were processed

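Bulk RNA of sorted fibroblasts was measured in 6 libraries, put into 2 groups by their labelled genotype. Per the submitters' processing notes, kallisto was among the tools and GRCm38.p6 among the builds. The authors' deposited gene table gives 1 expected (estimated) count per gene, as a whole number. Of its values, 99.7% equalled length-scaled TPM within 1% plus 1 count, and 26.2% equalled plain sums. Such scaling weights short transcripts by their TPM. The deposited transcript files give estimated counts, TPM and other values (lengths in bases). The deposited sample sheet gives 2 surrogate variables as a score and a size factor as a ratio, of which only the scores were used.

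Genes were tested with edgeR 4.0.16 in R 4.3.3 (TMM, filterByExpr, robust quasi-likelihood fit, Benjamini-Hochberg over all genes). Alternatives were DESeq2 1.42.0, limma 3.58.1 (voom, and trend on log2-transformed TPM), other scalings and filters, plain sums, the surrogate variables, and leaving out each library. Transcripts were assigned with GENCODE M21, and 113580 of 115270 were placed. The tests were checked on simulated data. The genes, lists and naming rule (all 9 genes, up to 4 per pathway list by smallest p, 5 nearest profiles) were chosen with earlier results of these data known. A few further genes (Ihh, Dhh, Shh, Ccnd1 and those that DESeq2 called) and the transcripts described were singled out after their values were seen. Some genes that this rule picks are not reported here.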

Additional observations from a re-analysis of the deposited data

How the results depend on the processing

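No paired analysis was possible because the genotypes share only replicate number 4. The count of 0 of the 9 genes held in all alternatives except DESeq2 with the surrogate variables, which called 1 (Hhip) and also 1 pathway gene (Foxf1). With these 2 further terms, 6 libraries leave little to measure the spread by. DESeq2 without DdblGata1 replicate 4, added after the data were seen, called 8 pathway genes. Over all genes DESeq2 called 216, and with the surrogate variables 448. It called 1023, 81 and 43 without DdblGata1 replicates 4, 9 and 10, and 107, 242 and 140 without wild-type replicates 1, 3 and 4; edgeR called 0 to 1 with 1 library left out. Gli1 changed sign with plain sums (-0.039), and without DdblGata1 replicate 9 by edgeR (-0.063; -0.063 to 0.253 over the libraries left out) and by DESeq2 (-0.051). Gli2 did so without wild-type replicate 3 (0.009 by edgeR, range -0.403 to 0.009; 0.005 by DESeq2). Gas1 did so with the surrogate variables (-0.12 by edgeR, -0.13 by DESeq2) and without DdblGata1 replicate 10 (-0.044 by edgeR, range -0.044 to 0.261; -0.034 by DESeq2). The other 6 genes kept their direction in all 25 alternatives: Hhip from -0.68 to -0.35, Ptch1 from -0.45 to -0.06, Smo from -0.29 to -0.06, Boc from 0.14 to 0.34, Gli3 from 0.27 to 0.50 and Cdon from 0.41 to 0.78. Apart from the surrogate-variable result for Hhip, no alternative brought any of these 6 past the threshold. The cause of these changes was not tested. Gene values that rest in part on short transcripts with few counts are limited by counting error there.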
